A study of Homo sapiens with 8 samples.

Results

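The transcripts of the NF-kappa B subunits and of the proteins that restrain them were followed in A549 cells, an established line from a human lung carcinoma, across increasing doses of a plant extract and of one of its cardiac glycosides. The genes were taken by symbol and comprised the subunits NFKB1, NFKB2, REL, RELA and RELB, the inhibitors NFKBIA, NFKBIB and NFKBIE, the deubiquitinating enzyme gene TNFAIP3 and the kinase gene MAP3K14. Of these 10 genes, 9 were matched to a probe, out of 19056 genes matched in the whole series. NFKB2 was not matched by the probe accessions used here, although the study lists it among the genes raised by EEDS. Cells received the vehicle or EEDS, the ethanol extract of Descurainia sophia seeds, at 1.25, 5 or 20 μg/mL, or, in a separate series with its own vehicle control, helveticoside at 3.75, 15 or 60 nM. RNA from 3 cultures was pooled for each condition and hybridized to 1 one-colour Agilent array, giving 8 arrays in all with no other treatment or genetic change. The labels give an exposure of 48 h, whereas the methods of the study give a shorter one for the arrays. EEDS is a mixture, A549 is a single line, and the dose steps of the agents are not matched in amount. Both top doses and the middle dose of EEDS were above the growth-inhibitory concentration that the study gives for each agent. The middle dose of helveticoside was below it. The part of growth inhibition in the results was not tested.

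NF-kappa B is a family of dimeric transcription factors that wait in the cytoplasm, bound by inhibitory I kappa B proteins. In the canonical route a kinase complex marks the inhibitor for destruction and frees dimers of RELA or REL with the processed product of NFKB1, while in the noncanonical route the kinase encoded by MAP3K14, known as NIK, leads to dimers containing RELB. The freed dimers are known to switch on genes for their own inhibitors, including NFKBIA and TNFAIP3, so the system is a textbook example of negative feedback. In airway epithelial cells the pathway is known for chemokine production.

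Because members of this family are known targets of their own product, the bases before their transcription starts were examined first for the kappa B consensus, the binding motif by which the family is recognised, on both strands and allowing matches to overlap. The RefSeq promoter table (GRCh38.p14) held starts for 8 of the 10 genes, and RELB and NFKBIE were not in it. Within 250 bases before any listed start, 6 of these 8 genes held a match, namely NFKB1, NFKB2, REL, NFKBIA, NFKBIB and TNFAIP3, and RELA and MAP3K14 held none. The share over all 14901 genes of the array that have a listed start was 14.5%. The last 120 bases before the most upstream start are printed for the 4 measured genes with a match there, read 5′ to 3′ on the strand of the gene, with the matches in capitals.
NFKBIA (chr14:35404750-35404869, minus strand): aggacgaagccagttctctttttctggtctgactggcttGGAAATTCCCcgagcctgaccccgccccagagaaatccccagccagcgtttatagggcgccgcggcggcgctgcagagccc
TNFAIP3 (chr6:137867139-137867258, plus strand): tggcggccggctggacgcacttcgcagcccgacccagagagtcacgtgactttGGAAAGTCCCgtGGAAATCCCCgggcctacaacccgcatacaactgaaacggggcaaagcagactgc
NFKB1 (chr4:102501239-102501358, plus strand): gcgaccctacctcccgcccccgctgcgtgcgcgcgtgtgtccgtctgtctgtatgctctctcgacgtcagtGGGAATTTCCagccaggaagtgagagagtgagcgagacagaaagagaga
REL (chr2:60881454-60881573, plus strand): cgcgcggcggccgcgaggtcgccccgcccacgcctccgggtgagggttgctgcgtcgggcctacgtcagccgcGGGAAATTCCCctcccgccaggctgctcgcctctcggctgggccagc
Counted back from the start, whose preceding base is -1, the match lay at -81 to -72 in NFKBIA, at -49 to -40 in NFKB1 and at -47 to -37 in REL, where matches on both strands overlapped. TNFAIP3 held a pair of separate matches, at -67 to -58 and at -55 to -46. NFKBIB held its match only before a second, more downstream start. A match describes the letters and not an occupied site.

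**Figure D1:**
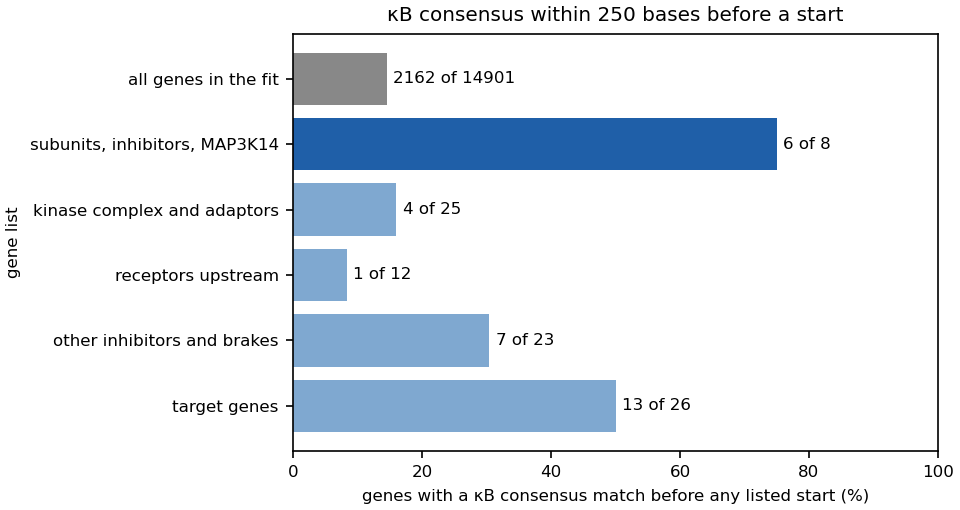
Share of genes with a kappa B consensus match within 250 bases before any listed transcription start, in percent, for all genes of the array with a listed start (grey), for the NF-kappa B genes (dark blue) and for the lists of pathway genes (light blue), with the counts beside each bar. Matches were found in 6 of 8 NF-kappa B genes and 13 of 26 target genes, against 2162 of 14901 genes overall.

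The median signal of the arrays was 182 to 278 over a local background of 27 to 34, and 56.9 to 66.9% of probe spots were called well above background. The epithelial markers KRT8, KRT18, KRT19, KRT7, CDH1, EPCAM and CLDN1 were above background on every array. They did not stay level, since 4 of the 7 fell and 1 rose with EEDS and 3 fell and 1 rose with helveticoside, with log2 ratios at the top doses of -2.71 and -2.71 for CDH1, -1.90 and -1.72 for KRT19 and 2.51 and 2.54 for CLDN1, and their part in the results for the family was not tested. Most markers of blood, endothelial and stromal cells were not above background, with 8 of 15 on no array and CD14, PTPRC, CDH5 and COL1A1 on all 8 arrays. Since each dose had 1 array, no p-value belongs to a single dose. The only repeated condition was the vehicle, and the log2 difference between the vehicle arrays of the helveticoside and EEDS series had an SD of 0.48 over the 11498 genes that cleared the background on each of the 8 arrays, of which 4.73% differed by over 2-fold. Among the NF-kappa B genes this difference ran from -0.61 for TNFAIP3 to 0.58 for REL, and 0 of 9 differed by over 2-fold. The series cannot be told apart from any batch between them. Of the 9 genes, 8, all but TNFAIP3, were well above background on every array.

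With both agents, the 9 measured genes had higher signals than with the vehicle at most doses. In these bulk samples a change in each cell and a change in the share of responding cells cannot be told apart. The genes were chosen with earlier results of these data known. The study itself lists REL, RELB, NFKBIB, NFKBIE, TNFAIP3, MAP3K14 and the unmatched NFKB2 among the genes strongly raised by EEDS. The shares of all genes, here and for the dose trend, are therefore a scale for the counts and no test of these genes as a set. At the top dose of EEDS, all 9 measured genes were over 2-fold above the vehicle, against 13.3% of 19046 genes, and at the top dose of helveticoside 8 of 9 were, against 10.8% of genes. None of the 9 was over 2-fold lower, a change met by 14.5% of genes with EEDS and 12.8% with helveticoside. At the middle dose, 6 genes were over 2-fold higher with EEDS, against 7.33% of genes, and 4 with helveticoside, against 7.08%. At the lowest dose this held for MAP3K14 with EEDS, against 4.22% of genes, and for NFKBIA with helveticoside, against 3.38%. The signal was higher at each of the 3 dose steps for 7 genes with EEDS and 6 with helveticoside, against 19.3% and 12.3% of all genes.

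The dose trend was fitted with limma over the 8 arrays as a slope per dose step, from 0 for the vehicle to 3 for the top dose, with an adjusted p under 0.05 as the threshold after the Benjamini-Hochberg procedure over all 19046 genes. With EEDS, 7 of the 9 genes rose, against 7.27% of all genes, and 0 fell, against 7.85%. With helveticoside 4 of the 9 rose, against 5.48% of all genes, and 0 fell, against 5.8%. NFKB1, RELB, NFKBIB and MAP3K14 passed with both agents, and REL, NFKBIE and TNFAIP3 passed with EEDS. The helveticoside count depended on the settings and reached 7 or 8 under 6 of the 14 alternatives. Under these 6 the number of all genes rising ran from 786 of 18200 to 1326 of 11498, against 1043 of 19046 here. The 19046 genes include 4269 that cleared the background on no array, whereas 8 of the 9 members cleared it on all 8. In a fit of the 11498 genes that did so, 1726 rose and 1874 fell with EEDS. With helveticoside 1326 of them rose and 1448 fell. These are larger shares than those of all genes. That fit held 8 members, of which 7 rose with each agent. With either agent, 0 genes of the array passed when a dose was left out or a series was fitted alone. The fit assumes that deviations from a straight line stand for the spread between arrays.

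**Figure D2:**
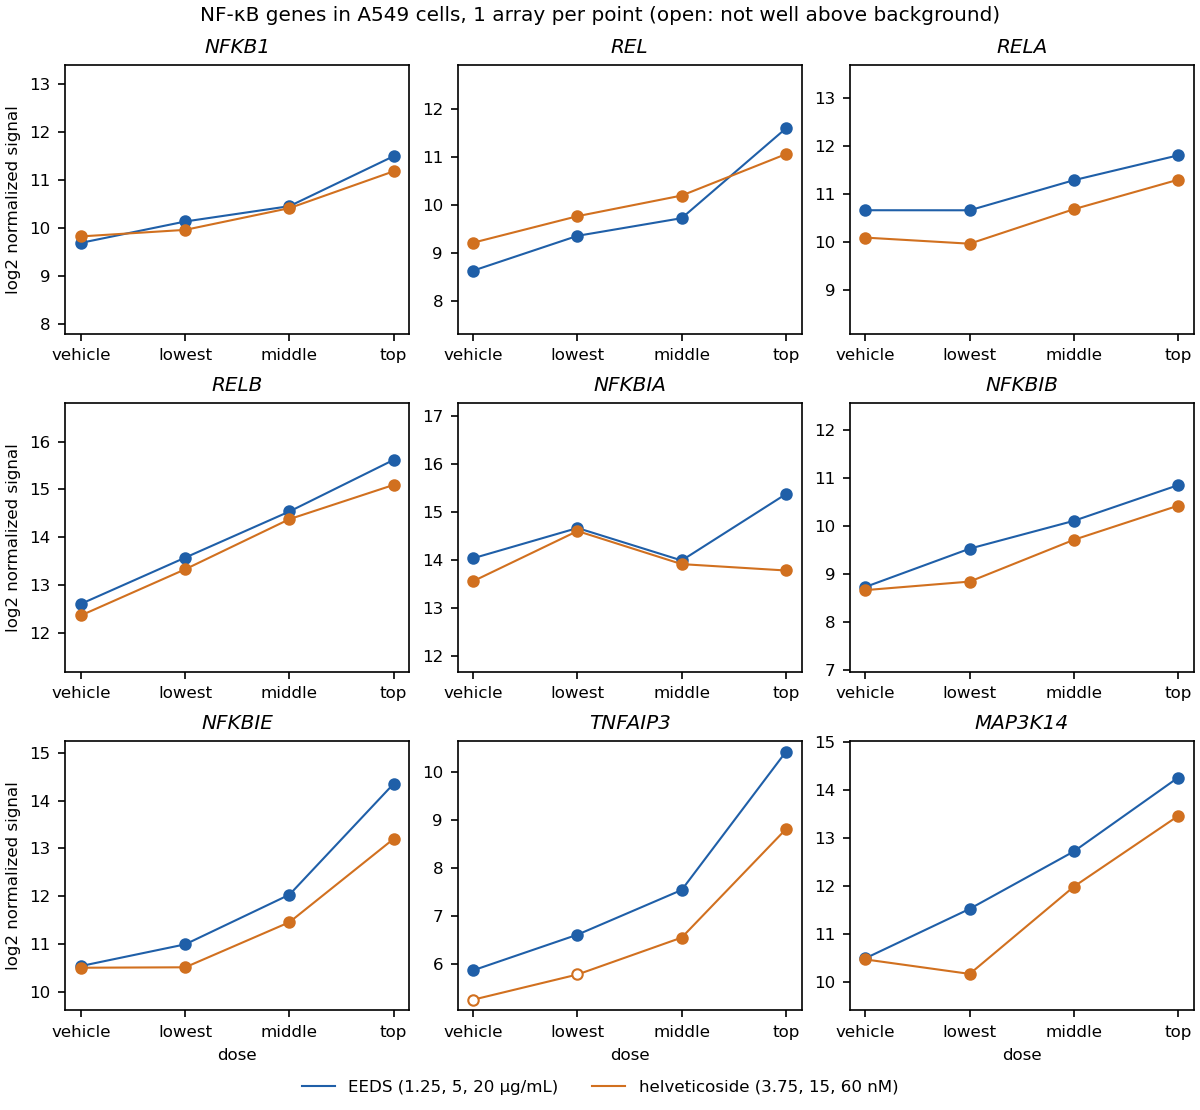
log2 normalized signal (vertical axis) of the 9 measured genes at the vehicle and the 3 doses (horizontal axis) of EEDS (blue) and helveticoside (orange), 1 array per point, with all panels spanning the same number of log2 units. Open points were not well above background. Most lines climb with dose, and that of NFKBIA with helveticoside is highest at the lowest dose.

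Among the subunits, RELB, the partner subunit of the noncanonical route, had the steadiest rise. Its log2 signal was 12.62 with the vehicle and 13.58, 14.54 and 15.62 at 1.25, 5 and 20 μg/mL EEDS. With helveticoside it was 12.37 with the vehicle and 13.34, 14.38 and 15.10 at 3.75, 15 and 60 nM. Each treated array lay above both vehicle arrays, and each step from one dose to the next added 0.96, 0.96 and 1.08 log2 units with EEDS and 0.96, 1.04 and 0.71 with helveticoside. The signal at the top dose was 8.01-fold that of the vehicle with EEDS and 6.59-fold with helveticoside. The slope was 0.997 ± 0.044 per step (SE, limma, adjusted p = 0.0072) with EEDS and 0.921 ± 0.044 (adjusted p = 0.0147) with helveticoside.

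REL encodes c-Rel, a subunit best known from lymphocytes. Its signal stood at a log2 value of 8.63 with the vehicle and 9.36, 9.73 and 11.60 at the rising doses of EEDS. In the helveticoside series it was 9.22 with the vehicle and 9.77, 10.20 and 11.06 at the rising doses. All 6 treated arrays were above both vehicle arrays, although the vehicle arrays themselves differed by 0.58. The increase reached 7.81-fold with EEDS, of which the step from 5 to 20 μg/mL made up 63.1% on the log2 scale, and 3.60-fold with helveticoside. REL rose with EEDS at 0.93 ± 0.15 per step (SE, limma, adjusted p = 0.0200), and its slope with helveticoside, 0.60 ± 0.15, missed the threshold (adjusted p = 0.0582).

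NFKB1, which encodes the p105 precursor and its product p50, changed less. From the vehicle to the top dose of EEDS, its log2 signal was 9.69, 10.14, 10.46 and 11.50. It was 9.83, 9.97, 10.42 and 11.19 over the helveticoside series. Apart from the lowest dose of helveticoside, which was 1.10-fold the vehicle, the treated arrays were 1.36-fold or more of their vehicle, and the top doses were at 3.50-fold with EEDS and 2.56-fold with helveticoside. NFKB1 rose with both agents, at 0.57 ± 0.10 per step (SE, limma, adjusted p = 0.0237) with EEDS and 0.45 ± 0.10 (adjusted p = 0.0453) with helveticoside.

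RELA encodes p65, the main transactivating subunit of the canonical route, and had the smallest change of the subunits when each series was read against its own vehicle. Its log2 signal was 10.66, 10.66, 11.29 and 11.80 over the EEDS series and 10.09, 9.96, 10.68 and 11.30 over the helveticoside series. The lowest dose of neither agent stood above its vehicle, and the EEDS vehicle array was nearly level with the middle dose of helveticoside. At the top dose the signal was 2.21-fold that of the vehicle with EEDS and 2.31-fold with helveticoside, and a second probe of the gene gave log2 ratios of 1.24 and 1.19 beside 1.15 and 1.21. Against the vehicle array of the EEDS series, the top dose of helveticoside had a log2 ratio of 0.64, which would leave 7 of the 9 genes over 2-fold higher. Against the vehicle array of the helveticoside series, the top dose of EEDS had a log2 ratio of 1.72 for RELA and 1.67 for NFKB1. The slopes were 0.41 ± 0.11 (SE, limma, adjusted p = 0.0604) and 0.43 ± 0.11 (adjusted p = 0.0600), above the threshold, which 7 of the 14 alternatives passed for each agent.

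The inhibitors did not move as one. NFKBIA encodes I kappa B alpha, the inhibitor that is degraded and remade in each cycle of canonical activation. Its log2 signal was 14.04 with the vehicle, 14.67 at 1.25 μg/mL EEDS, 13.99 at 5 μg/mL and 15.38 at 20 μg/mL. With helveticoside it was 13.56 with the vehicle, 14.61 at 3.75 nM, 13.92 at 15 nM and 13.78 at 60 nM. Both series went up at the lowest dose and down at the middle dose, by 0.68 with EEDS and 0.69 with helveticoside, and they parted at the top dose, where EEDS was 2.53-fold and helveticoside 1.17-fold the vehicle. The probe was printed as 10 spots on each array, whose log2 values had an SD of 0.03 to 0.05 within an array. This covers the spots of 1 hybridization and not the spread between cultures or arrays. The slope was 0.33 ± 0.22 per step (SE, limma, adjusted p = 0.367) with EEDS and -0.002 ± 0.221 (adjusted p = 0.999) with helveticoside, and the difference between them, 0.34, had a 95% interval from -0.44 to 1.12. With the vehicle array of the EEDS series as the reference, the top dose of helveticoside gave a log2 ratio of -0.26 in place of 0.22.

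NFKBIB encodes I kappa B beta, which is known to turn over more slowly than I kappa B alpha. Log2 signals of 8.73, 9.53, 10.11 and 10.85 were measured over the EEDS series. In the helveticoside series it was 8.66, 8.84, 9.71 and 10.43. Unlike NFKBIA, it was higher at every step with both agents and ended at 4.35-fold with EEDS and 3.39-fold with helveticoside. NFKBIB rose at 0.69 ± 0.08 per step (SE, limma, adjusted p = 0.0137) with EEDS and at 0.62 ± 0.08 (adjusted p = 0.0185) with helveticoside.

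NFKBIE, the gene of I kappa B epsilon, had a late and larger rise. Its log2 signal was 10.55, 11.00, 12.04 and 14.35 over the EEDS series, and 10.51, 10.52, 11.46 and 13.20 over the helveticoside series. The lowest dose of helveticoside was level with the vehicle, and the last dose step supplied 60.9% of the log2 increase with EEDS and 64.7% with helveticoside. The top doses were 13.9-fold and 6.44-fold the vehicle. NFKBIE rose with EEDS at 1.24 ± 0.25 per step (SE, limma, adjusted p = 0.0314), and its slope with helveticoside, 0.90 ± 0.25, did not pass (adjusted p = 0.0753).

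TNFAIP3 encodes A20, an enzyme that edits ubiquitin chains and shuts down signalling upstream of the kinase complex. Its log2 signal was 5.87, 6.62, 7.55 and 10.43 over the EEDS series. In the helveticoside series it was 5.26 with the vehicle and 5.79 at 3.75 nM, both not well above background, and 6.56 and 8.82 at 15 and 60 nM. The top dose of EEDS was 23.5-fold the vehicle, the largest ratio among the 9 genes by the processed signal, and the top dose of helveticoside was at least 9.61-fold higher, since its vehicle gives only a bound. The last step made up 63.2% of the log2 increase with EEDS. TNFAIP3 rose with EEDS at 1.46 ± 0.28 per step (SE, limma, adjusted p = 0.0303), and the slope with helveticoside was 1.14 ± 0.28 (adjusted p = 0.0596). Both values depended on the background. Without its subtraction the log2 ratio at the top dose of EEDS was 3.27 in place of 4.56, below the 3.73 of NFKBIE and the 3.67 of MAP3K14. At the top dose of helveticoside the bound of 3.26 compares with a log2 ratio of 2.09 without subtraction and of 1.81 in the deposited table.

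MAP3K14, the NIK gene at the head of the noncanonical route, was among the genes with the largest changes. Over the EEDS series its log2 signal was 10.49, 11.52, 12.72 and 14.26. It was 10.46, 10.16, 11.98 and 13.46 over the helveticoside series. With EEDS the steps from one dose to the next added 1.03, 1.20 and 1.54 log2 units, whereas with helveticoside the lowest dose was 0.30 below the vehicle and the next step added 1.82. The top doses were at 13.6-fold and 7.96-fold the vehicle. MAP3K14 rose with EEDS at 1.25 ± 0.21 per step (SE, limma, adjusted p = 0.0224) and with helveticoside at 1.08 ± 0.21 (adjusted p = 0.0352).

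**Figure D3:**
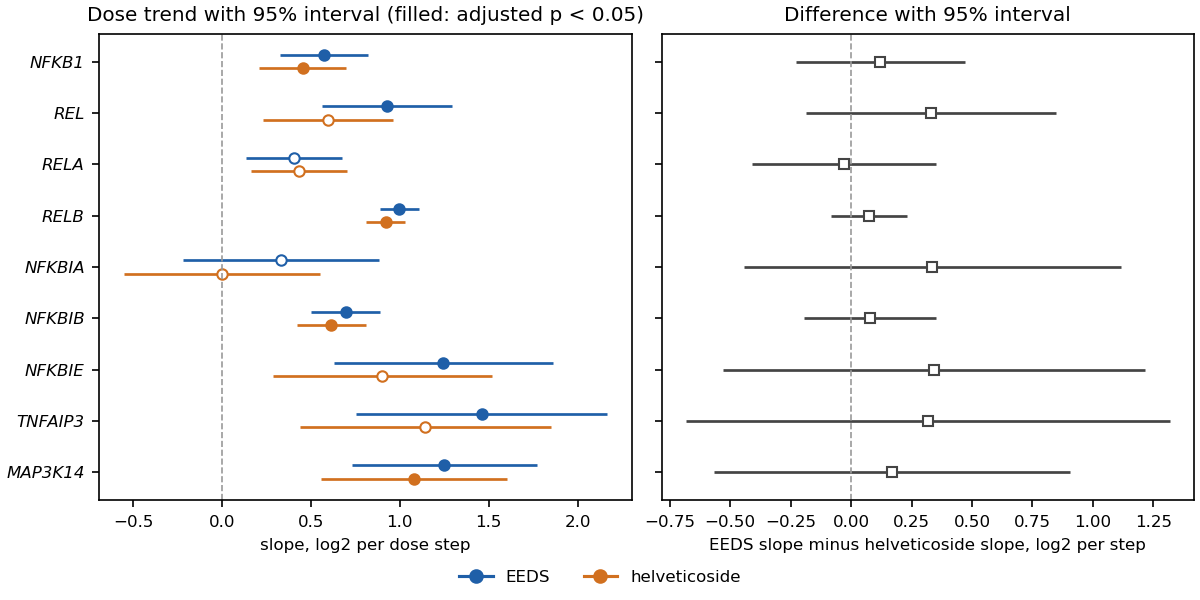
Left, slope of the log2 signal per dose step with its 95% interval for EEDS (blue) and helveticoside (orange), with filled points for an adjusted p under 0.05. Right, the EEDS slope minus the helveticoside slope with its 95% interval. The intervals of the difference include 0 for all 9 genes, from the narrowest in RELB, -0.08 to 0.23, to the widest in TNFAIP3, -0.68 to 1.32.

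Whether the agents differed was tested as the difference of their slopes per dose step in the same fit. None of the 9 genes passed, and 0% of all genes did at an adjusted p under 0.05. At an unadjusted p under 0.05, 0 of the 9 genes and 2.76% of all genes were called. The slope was larger with EEDS for 8 genes and smaller for RELA, at -0.03 with a 95% interval from -0.41 to 0.35. The share of all genes with a larger slope with EEDS was not computed, and the dose steps are not matched in amount. Over all genes the log2 ratios also spread more widely at the top dose of EEDS. Their 10th to 90th percentiles were -1.31 to 1.20, against -1.21 to 1.05 with helveticoside. For RELB the interval from -0.08 to 0.23 log2 units per step bounds the difference most closely, and for TNFAIP3 it reached from -0.68 to 1.32.

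The shape of each profile was compared over the 6 treated arrays, each relative to its own vehicle, as a Pearson r for the 8 members above background throughout, as a description without a test. The 6 values share 2 vehicle arrays and a common dose order, and 459 to 787 of 11497 genes had an r over 0.95 with each of these genes other than NFKBIA. For NFKBIA there were 12 such genes, of which SNAI1, STARD4 and ZNF689 came closest, at 0.996, 0.995 and 0.989. The gene closest to NFKBIB was MAP3K14, and the reverse held too, with an r of 0.9999. KLHL18, FNIP1 and ARMCX5 were closest to NFKB1, and ZNF593, SAP30BP and GLYR1 to REL. PHLDA3, M6PR and HCCS were closest to RELA, and CEP170B, VPS37C and PPP1CA to RELB. PPP1R15A, SPEN and ANKLE2 were closest to NFKBIE. SLC30A7 and PCF11 followed MAP3K14 for NFKBIB, and CREBRF and PCF11 followed NFKBIB for MAP3K14. Between members, NFKB1 and NFKBIE had an r of 0.997, whereas NFKBIA had an r of -0.13 to 0.38 with the others.

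**Figure D4:**
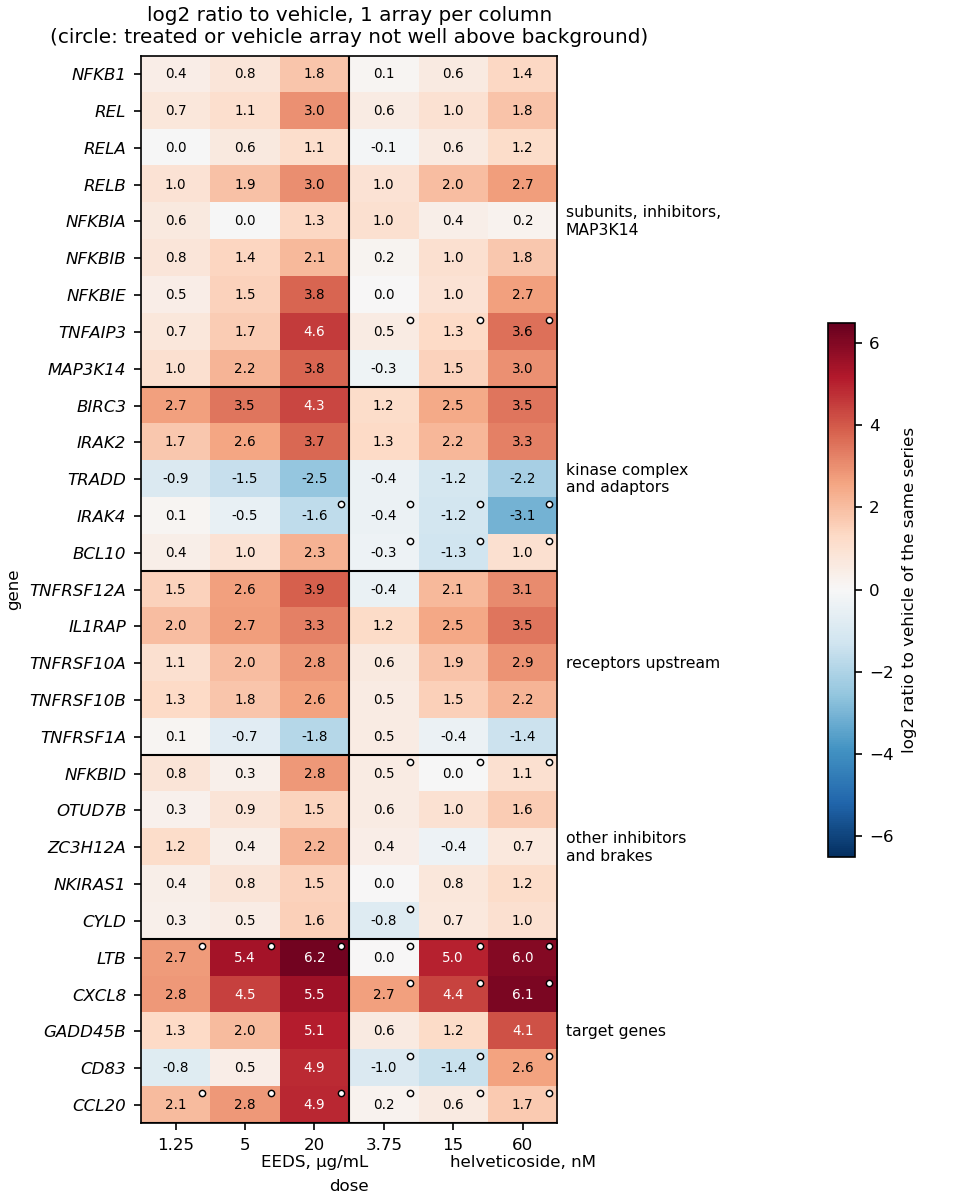
log2 ratio to the vehicle of the same series for the 9 NF-kappa B genes and the 20 named pathway genes (rows) at the 3 doses of EEDS and of helveticoside (columns, 1 array each), in red for higher and blue for lower. A circle marks a cell in which the treated or the vehicle array was not well above background. TNFAIP3 reads 4.6 at 20 μg/mL EEDS, and NFKBIA 0.2 at 60 nM helveticoside.

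Genes around the family were taken from lists of the kinase complex and adaptors, of upstream receptors, of other inhibitors and of known target genes, and 100 of their 101 genes were measured. The shares of all genes that passed the trend test, 7.27% rising and 7.85% falling with EEDS and 5.48% rising and 5.8% falling with helveticoside, stand beside each of the following counts, which include genes not well above background on some arrays. The shares include such genes too, and were larger in the fit of the 11498 genes that cleared the background on each array, as given above. Of 29 kinase and adaptor genes, 5 rose and 3 fell with EEDS and 4 rose and 4 fell with helveticoside. Their median log2 ratio at the top dose was 0.11 and 0.12, beside 0.02 and -0.004 over all genes and 2.97 and 1.85 over the 9 family members. With bounds in place of ratios to arrays not well above background, and genes without either left out, the list had medians of 0.11 and 0.14. The genes named from each list are the 5 with the largest mean log2 ratio at the top doses, of either sign. BIRC3, the gene of the ubiquitin ligase cIAP2, was 20.4-fold higher at the top dose of EEDS and 11.1-fold at that of helveticoside, and rose with both (limma, adjusted p = 0.0175 and 0.0279). IRAK2, a kinase of interleukin 1 receptor signalling, was at 13.1-fold and 9.82-fold (adjusted p = 0.0129 and 0.0165). TRADD, the adaptor of TNF receptor 1, fell with both agents, to log2 ratios of -2.54 and -2.18 (adjusted p = 0.0132 and 0.0167). IRAK4 was at least 3.12-fold lower with EEDS and at least 1.82-fold lower with helveticoside at the top doses, where it was not well above background. Its slope with EEDS did not pass (limma, adjusted p = 0.124). It was not well above background at any dose of helveticoside either. That slope, counted above among those that fell, rests on signals near the background, and no p is given. BCL10, which links antigen-receptor type signals to the kinase complex, had a log2 ratio of 2.28 at the top dose of EEDS and was at least 1.67-fold higher with helveticoside (adjusted p = 0.183 and 0.788).

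Of 16 receptor genes, 4 rose with each agent, against 7.27% and 5.48% of all genes, while 2 fell with EEDS and 1 with helveticoside, near the 7.85% and 5.8% of all genes. The median log2 ratio at the top dose was -0.09 and -0.04, or -0.30 and -0.16 with bounds. The 4 that rose with each agent were TNFRSF12A, IL1RAP, TNFRSF10A and TNFRSF10B. TNFRSF12A, the receptor of TWEAK that signals to the noncanonical route, was 14.8-fold and 8.32-fold above the vehicle at the top doses, although its log2 ratio at the lowest dose of helveticoside was -0.41. IL1RAP, the accessory chain of the interleukin 1 receptor, was at 9.59-fold and 11.1-fold. The death receptor genes TNFRSF10A and TNFRSF10B were at 6.97-fold and 6.23-fold with EEDS and at 7.53-fold and 4.63-fold with helveticoside. TNFRSF1A, which encodes TNF receptor 1, had log2 ratios of -1.83 and -1.41 at the top doses, with slopes that did not pass (limma, adjusted p = 0.0909 and 0.161).

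The list of other inhibitors and brakes is a broad one, which also holds adaptors and atypical nuclear I kappa B genes. Of its 23 genes, 3 rose and 1 fell with EEDS and 2 rose and 0 fell with helveticoside. This was close to the shares of 7.27% and 5.48% rising among all genes. The median log2 ratio at the top dose was 0.02 and 0.04, or 0.06 and 0.04 with bounds. The 1 that fell was NFKBIL1, with log2 ratios of -1.26 and -0.48 at the top doses (limma, adjusted p = 0.0200 with EEDS). NFKBIZ was at -0.26 and -0.60 and BCL3 at -0.31 and -0.34, without passing, whereas NFKBID was higher, as given below. NFKBIL1, NFKBIZ and BCL3 are named after their values were seen. OTUD7B, a deubiquitinase known from the noncanonical route, rose with both agents, to 2.73-fold and 3.11-fold (limma, adjusted p = 0.0142 and 0.0165). NKIRAS1, which binds I kappa B beta, also rose, to 2.85-fold and 2.25-fold (adjusted p = 0.0230 and 0.0371). The deubiquitinase gene CYLD had log2 ratios of 1.56 and 1.04 at the top doses and did not pass (adjusted p = 0.178 and 0.217). NFKBID, an atypical nuclear I kappa B, had log2 ratios of 0.83, 0.33 and 2.82 at the rising doses of EEDS, and ZC3H12A, the RNase Regnase-1, of 1.17, 0.40 and 2.21. Both were lower at the middle than at the lowest dose of EEDS, as NFKBIA was, and neither slope with EEDS passed (adjusted p = 0.114 for NFKBID and 0.174 for ZC3H12A). With helveticoside ZC3H12A had log2 ratios of 0.43, -0.36 and 0.70 (adjusted p = 0.843), and NFKBID was at least 1.60-fold higher at the top dose (adjusted p = 0.643), its vehicle and lower doses being not well above background.

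Of 32 target genes, 15 rose and 1 fell with EEDS and 9 rose and 0 fell with helveticoside, against 7.27% and 5.48% of all genes rising. Several were not well above background on the vehicle arrays, and at the top dose 3 of the 32 with EEDS and 6 with helveticoside had neither a ratio nor a bound. By ratio or bound, 22 were over 2-fold higher with EEDS and 15 with helveticoside, against 11.4% and 7.91% of all genes by the same measure. Their median log2 ratio was 2.03 and 1.29 with bounds, and 2.42 and 1.36 with every signal taken as measured. CXCL8, the chemokine interleukin 8, was 45.8-fold higher with EEDS and at least 54.2-fold higher with helveticoside and rose with EEDS (limma, adjusted p = 0.0134). LTB, a ligand of the noncanonical route, was at least 27.5-fold and at least 10.3-fold higher. GADD45B, a stress-response gene, was at 34.5-fold and 17.6-fold (adjusted p = 0.0313 and 0.0573). CCL20, a chemokine gene, was at least 9.38-fold and at least 1.58-fold higher. Neither LTB nor CCL20 was well above background on either vehicle array, so their slopes rest in part on signals near the background and no p is given, and the same holds for the helveticoside vehicle of CXCL8. CD83 had log2 ratios of -0.79, 0.46 and 4.86 at the rising doses of EEDS and was at least 5.06-fold higher at the top dose of helveticoside, with slopes that did not pass (adjusted p = 0.191 and 0.597). The folds and bounds of CXCL8, LTB, CCL20 and CD83 are by the processed signal over low vehicle signals, as for TNFAIP3. How they change without background subtraction was not computed. C3 was the target gene that fell with EEDS, to a log2 ratio of -0.75, and is named for that count after its values were seen. VCAM1, CCL5 and IL1B were well above background on no array.

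**Figure D5:**
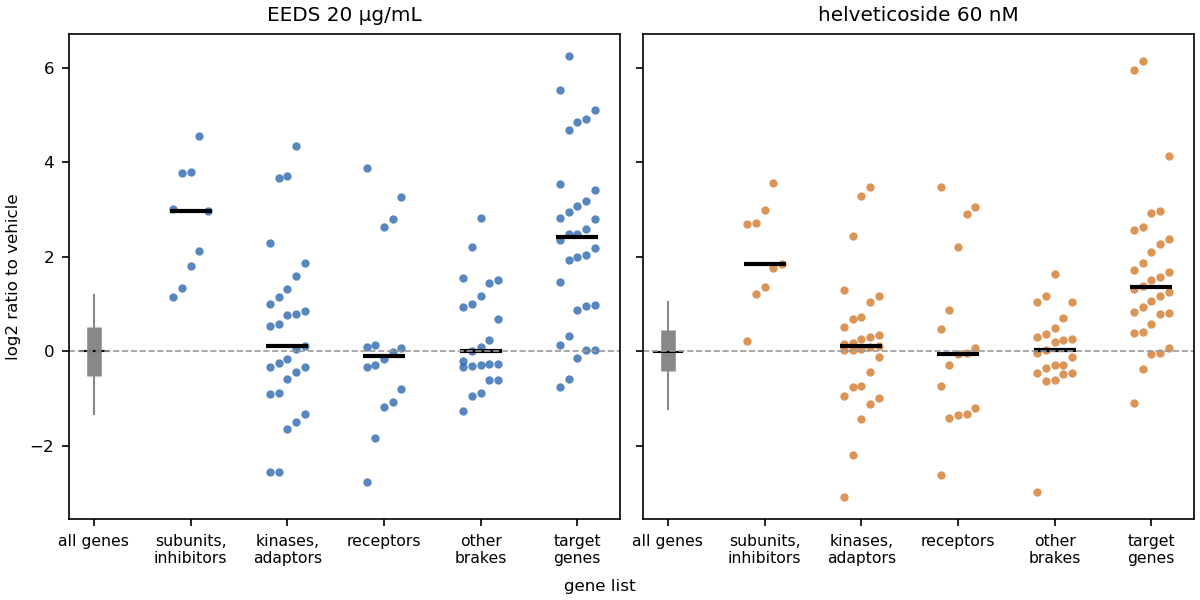
log2 ratio to the vehicle (vertical axis) at 20 μg/mL EEDS (left, blue) and 60 nM helveticoside (right, orange), 1 point per gene, for the NF-kappa B genes and the lists of pathway genes, with a black bar at each median. For all genes the thick grey bar spans the 25th to 75th and the thin line the 10th to 90th percentile. The NF-kappa B genes, at medians of 2.97 and 1.85, and the target genes, at 2.42 and 1.36, lie higher than the other lists, whose medians are -0.09 to 0.12. Signals not well above background are drawn as measured.

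Among list genes with a listed start, the kappa B consensus was matched in 13 of 26 target genes and 7 of 23 genes listed as other inhibitors. It was matched in 4 of 25 kinase and adaptor genes and 1 of 12 receptor genes, against 14.5% of all genes of the array with a listed start. At the top dose of EEDS, the measured members without a match were MAP3K14 at 13.6-fold and RELA at 2.21-fold the vehicle. Those with a match were TNFAIP3 at 23.5-fold, REL at 7.81-fold, NFKBIB at 4.35-fold, NFKB1 at 3.50-fold and NFKBIA at 2.53-fold. At the top dose of helveticoside, MAP3K14 was at 7.96-fold and RELA at 2.31-fold. There TNFAIP3 was at least 9.61-fold higher, with REL at 3.60-fold, NFKBIB at 3.39-fold, NFKB1 at 2.56-fold and NFKBIA at 1.17-fold.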

How the data were processed

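Per the file headers, the authors deposited scanner intensity for every spot, including processed signals with the background already subtracted. They also deposited a table of intensity values. Judged from its numbers, this table held median signal minus background, quantile-normalized separately in each series. Pools of RNA from 3 cultures were hybridized, 1 pool per array.

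Control and outlier spots were removed here, and the mean processed signal of each probe was quantile-normalized across the 8 arrays and log2-transformed. Probe accessions were named through RefSeq (GRCh38.p14). A gene was represented by its brightest probe on average. The filter required 1.4 times the local background on 1 array in each series and retained 19046 genes. Ratios with an array not well above background are bounds, taken against the higher of that array's lowest signal called above background and the probe's own. These bounds hold for the processed signal only, and for TNFAIP3 other processing gave ratios below its bound.

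The trend model (limma 3.58.1 under R 4.3.3 with statmod 1.5.0, trended and robust) held separate intercepts and slopes for the series, leaving 4 degrees of freedom, and was tested on simulated data. Of 200 genes given a trend with EEDS there, 87 were among the 94 genes called. It found 59% of slopes of 1 log2 unit per step and 28% of the smaller ones. A slope that did not pass is therefore not shown to be absent. The simulation gave a trend to 200 of 19046 genes, whereas 1384 rose and 1495 fell with EEDS in the data. The shares found there need not hold for the data. Python 3.11.15 with pandas 2.3.3, numpy 2.4.6, scipy 1.17.1 and matplotlib 3.10.9 gave the other values. The members, lists and alternatives were chosen with earlier results of these data known. The text names every measured member. From each list it names the 5 genes with the largest mean log2 ratio at the top doses, among those above background on the vehicle or top-dose array of both series. It also names the 3 genes nearest in profile to each member. Other genes of these lists were named after their values were seen. Precision is limited by having few arrays.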

Additional observations from a re-analysis of the deposited data

How the results depend on the processing

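No paired analysis was possible because each dose had 1 array. With either series fitted on its 4 arrays alone, or with the lowest, the middle or the top dose of both series left out, which leaves 2 residual degrees of freedom, the number of members and of pathway genes rising or falling with either agent was 0, as was the number over all genes by limma. At an unadjusted p under 0.05 the same fits called 7 to 8 of the 9 members with EEDS, against 19.6 to 28.4% of all genes, and 5 to 8 with helveticoside, against 17.1 to 25.9%. The count of members rising with helveticoside was 7 with the signal as scanned, with normexp and an offset of 50, with the deposited table and with genes well above background on all 8 arrays, and 8 with 75th percentile scaling and with dose as log2 of 1 plus the dose over the lowest dose. The number of pathway genes falling with EEDS was 12 in place of 7 when the deposited values were used. Under 75th percentile scaling the median over all genes shifted to a log2 ratio of -0.36 at the top dose of EEDS and -0.18 at that of helveticoside. All other counts of members and pathway genes stayed within 1.5 times their reported value. No member that passed changed the direction of its slope, and of 162 alternative values of log2 ratios at the top doses 5, all of TNFAIP3, moved by more than 0.65, the SD between the vehicle arrays over all genes. Many of the 162 could not move. The filters were applied after normalization and left each ratio as it was, as did the mean of all probes for every member but RELA.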
